A study of Mus musculus with 157 samples.

Results

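Tcf7, Lef1 and the Wnt pathway genes Ctnnb1, Axin2, Nkd1 and Ccn4 were followed across thymocyte stages and thymic lymphomas of mice with a mutant Cdc20. They are 6 of the 50686 genes in each of a pair of deposited gene count tables. They were picked by symbol, and partly by measurement: Ccn4 and Nkd1 were among the largest rises in full tumours, so their levels in RERT2 D/AAA tumours and RERT2 thymus are described and not tested. All 6 were found in both tables.

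TCF-1, the product of Tcf7, and LEF-1 are DNA-binding proteins that hold Wnt target genes silent with Groucho (Tle) corepressors and switch them on when beta-catenin, the product of Ctnnb1, joins them. A destruction complex built on axin removes free beta-catenin, and Wnt ligands block it through Frizzled and Lrp receptors. In the thymus, TCF-1 is needed for commitment to the T lineage and LEF-1 acts beside it up to the double positive stage, and mice without TCF-1 are known to develop thymic lymphoma. Axin2 and Nkd1 are feedback inhibitors that are themselves Wnt targets, and Ccn4 (also called Wisp1) encodes a secreted matricellular protein that was found as a Wnt-induced gene.

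In GRCm38 with GENCODE M21 gene models, Tcf7 (ENSMUSG00000000782) lies at chr11:52252371-52283014 on the minus strand, and the other 5 lie on the plus strand. Lef1 (ENSMUSG00000027985) is at chr3:131110471-131224356, Ctnnb1 (ENSMUSG00000006932) at chr9:120929216-120960507 and Axin2 (ENSMUSG00000000142) at chr11:108920349-108950783. Nkd1 (ENSMUSG00000031661) is at chr8:88521354-88594884 and Ccn4 (ENSMUSG00000005124) at chr15:66891320-66923201. Exons of Lef1, Axin2 and Ctnnb1 overlap exons of Gm43352, Gm11670 and Ulk4 on the opposite strand. No source used here says whether reads were counted by strand, so these values are uncertain to that extent.

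Axin2 and Nkd1 are the members whose levels were high in the same LCK D/AAA MYCChr6 tumours, and their promoter windows are shown for that reason, next to the Lef1 window that held a TCF/LEF motif. Each window covers 250 bases before and 50 bases after a transcription start (RefSeq, GRCm38.p6), written 5′ to 3′ on the plus strand, with the motif in capitals. The windows are Axin2 at chr11:108920099-108920398, Nkd1 at chr8:88527383-88527682 and Lef1 at chr3:131156044-131156343. The Nkd1 and Lef1 windows lie at transcript starts inside the gene models, not at the gene's first base.
Axin2: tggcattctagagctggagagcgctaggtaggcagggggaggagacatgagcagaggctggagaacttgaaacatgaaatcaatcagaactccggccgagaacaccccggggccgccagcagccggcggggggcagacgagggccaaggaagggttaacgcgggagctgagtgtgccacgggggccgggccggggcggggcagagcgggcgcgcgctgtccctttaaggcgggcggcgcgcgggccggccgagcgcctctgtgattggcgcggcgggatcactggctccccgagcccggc
Nkd1: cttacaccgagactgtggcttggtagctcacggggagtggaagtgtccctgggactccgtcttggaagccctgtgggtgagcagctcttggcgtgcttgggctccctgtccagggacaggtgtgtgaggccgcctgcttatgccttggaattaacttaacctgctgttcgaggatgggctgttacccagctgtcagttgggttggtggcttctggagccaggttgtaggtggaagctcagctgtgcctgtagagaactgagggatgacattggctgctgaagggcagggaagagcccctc
Lef1: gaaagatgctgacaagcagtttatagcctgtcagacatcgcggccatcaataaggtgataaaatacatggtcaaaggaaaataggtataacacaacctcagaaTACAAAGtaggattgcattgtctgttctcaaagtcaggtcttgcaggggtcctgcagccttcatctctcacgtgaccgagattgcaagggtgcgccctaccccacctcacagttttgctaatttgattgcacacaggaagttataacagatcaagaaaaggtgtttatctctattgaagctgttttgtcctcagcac
The motif searched, on both strands, was CTTTG followed by AA, by AT, by TA or by TT. A match stood in 5544 of 32851 windows (16.9%), in 1 of the 4 Lef1 windows (TACAAAG, a match on the opposite strand) and in none of the Tcf7, Ctnnb1, Axin2 and Nkd1 windows. A window for Ccn4 was not used here.

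Bulk RNA was sequenced from 157 libraries of mouse thymus and thymic lymphoma, made in an earlier run of 81 libraries and a later run of 76. Libraries of the genotype Cdc20(D/AAA), which the series title calls aneuploid, were compared with Cdc20(+/D) controls. Cdc20 activates the anaphase-promoting complex, and both genotypes carry 1 D allele, so the controls are heterozygous and not wild type. The labels put RERT2, LCK or CD4 before the Cdc20 genotype and add MYCChr6 or p53(+/D) after it, without spelling these out, and they give neither age nor sex.

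The earlier run held only RERT2 libraries. Early tumours were all RERT2-Cdc20(D/AAA), and 5 were sorted as DP (double positive for CD4 and CD8). The other 7 carry no gate in their labels. They are called unsorted here for that reason only, and whether they were sorted is not known. The rest were sorted from non-tumoral thymus, as DP or as the double negative stages that precede it. DN1 had 9 RERT2-Cdc20(D/AAA) and 6 RERT2-Cdc20(+/D) libraries, DN2 had 1 and 8, DN3 had 5 and 8, DN4 had 6 and 8, and DP had 11 and 7. Libraries of the later run carry no gate in their labels. Tumours were RERT2-Cdc20(D/AAA) (22), RERT2-Cdc20(D/AAA);p53(+/D) (10), RERT2-Cdc20(D/AAA); MYCChr6 (3), LCK-Cdc20(D/AAA); MYCChr6 (14), LCK-Cdc20(+/D); MYCChr6 (4), CD4-Cdc20(D/AAA); MYCChr6 (2) and p53(-/-) (1). Non-tumoral thymus was RERT2-Cdc20(D/AAA) (9), RERT2-Cdc20(+/D) (6), RERT2-Cdc20(D/AAA); MYCChr6 (3) and RERT2-Cdc20(+/D); MYCChr6 (2). Below, RERT2-Cdc20(D/AAA) is shortened to RERT2 D/AAA, and the other genotypes likewise. No RERT2 +/D tumour was analysed here, and all thymus is RERT2, so the LCK and CD4 tumours have no thymus of their own line. Promoters of Lck and Cd4 are commonly used to drive Cre in thymocytes, but the labels do not say what these prefixes mean.

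Libraries held 21199 to 11595463 counts in the earlier run (median 6972708) and 1708619 to 8009572 in the later run. Levels are CPM, a gene's counts scaled to a common library total within each run by the trimmed mean of M-values (TMM), and are compared only within a run. A single gene, CT010467.1, took 30.05 to 55.95% of the counts of later libraries and at most 2.68% of the earlier ones. Its mean share differed between the later groups compared. It was 48.1% in RERT2 D/AAA and 48.7% in RERT2 +/D thymus, and 40.4% in RERT2 D/AAA tumours. In p53(+/D) tumours it was 36.5% and in LCK D/AAA MYCChr6 tumours 36.0%. What this share reflects was not tested. Replicate numbers are not in the labels and were given here in the order of the deposited samples. The same number in different groups therefore does not mark a shared animal or batch. The library numbered DN1 D/AAA replicate 8 was the one with 21199 counts, where 1 count is a large step. It had the highest Tcf7 of its group (946 CPM) and the lowest Ctnnb1 (91.5 CPM). Leaving out the D/AAA libraries shallower than every +/D library changed no member's call. The labels do not say whether libraries of 1 group come from separate animals, so the p-values measure the spread between these libraries, which may be technical.

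The DP markers Cd4 and Cd8a fitted the label in sorted DP cells (Cd4 307 to 1979 CPM in DP D/AAA and 1586 to 2123 CPM in DP +/D). Cd4 was 1.29 to 20.2 CPM in the 7 unsorted early tumours, below every DP library. The 4 summed markers of NK and innate lymphoid cells were 1665 to 3995 CPM in replicates 1 and 4 to 7, and 72.3 and 61.4 CPM in replicates 2 and 3, against 1.84 to 17.9 CPM in DP D/AAA cells. A chromosome score is the mean log2 difference of a chromosome's genes from +/D cells. A cut of 0.292 is called the gain level here and is lower than the log2 shift of an extra copy in every cell. Chromosome 15 scored above it in 2 of 11 non-tumoral DP D/AAA libraries and in 4 of 9 non-tumoral D/AAA thymuses.

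Tcf7 rose along the stages in +/D cells and was the most abundant member per base of gene, with a DP median of 1268 CPM per kilobase of exon, against 70.2 for Ctnnb1, 31.2 for Lef1 and 0.646 for Axin2. The libraries of DN1 +/D had 362 to 552 CPM (median 385), DN2 862 to 1489 (1226), DN3 1091 to 1781 (1429), DN4 1950 to 2749 (2452) and DP 1988 to 3785 CPM (3327). DN2 lay wholly above DN1, as did 11.6% of all genes, and DN4 wholly above DN3, as did 1.81%, while DN3 overlapped DN2 and DP overlapped DN4. Tcf7 rose by 1.52 ± 0.13 (log2, ± SE) in DN2 against DN1, by 0.67 ± 0.12 in DN4 against DN3 and by 0.54 ± 0.12 in DP against DN4. The adjusted p-values were 2.49e-12, 7.48e-05 and 0.000291 (edgeR's quasi-likelihood test, Benjamini-Hochberg over all genes tested, threshold 0.05). The difference of DN3 from DN2 was 0.28 ± 0.12 with an adjusted p of 0.223. Fewer cells of a type and less RNA per cell cannot be told apart in bulk libraries such as these.

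Lef1 rose 1 step later. Its level was 54.3 to 94.2 CPM in DN1 +/D (median 73.3), 47.8 to 142 in DN2 (106), 324 to 618 in DN3 (439), 270 to 434 in DN4 (316) and 190 to 386 CPM in DP (274). Every DN3 library lay above every DN2 library, as in 0.295% of all genes, and each later stage overlapped the one before it. The rise in DN3 against DN2 was 2.16 ± 0.18 (log2), with an edgeR adjusted p of 1.08e-10. Between DN2 and DN1 the difference was 0.42 ± 0.19 and between DP and DN4 it was -0.22 ± 0.18, and neither passed (adjusted p 0.0578 for DN2 against DN1).

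Ctnnb1 medians differed less than those of Tcf7 and Lef1. The median was 279 CPM in DN1 +/D, 331 in DN2, 307 in DN3, 427 in DN4 and 364 in DP, and all neighbouring stages overlapped. Only DN4 against DN3 passed the test, at 0.33 ± 0.11 (log2; edgeR adjusted p 0.0257). The feedback genes were low throughout. Axin2 had a median of 4.56 CPM in DN1 +/D (range 1.91 to 6.29), 0.698 in DN2 (0 to 1.61), 0.813 in DN3, 2.62 in DN4 and 3.56 in DP. All 8 DN2 libraries lay below all 6 DN1 libraries, as in 13.3% of all genes, and Axin2 fell by 2.5 (log2, SE 0.61; edgeR adjusted p 0.000696). It thus moved opposite to Tcf7 at this step.

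Nkd1 stayed at 4.35 CPM or below in every +/D library of the earlier run, and Ccn4 at 0.924 CPM or below, with no Ccn4 count in DN1 or DP +/D cells. The DN1 +/D libraries also carried markers of other cells: summed NK and innate lymphoid markers were 165 to 475 CPM in DN2 and 2361 to 3381 CPM in DN1, and B cell markers 1.08 to 96.4 CPM in DN2 and 759 to 2573 CPM in DN1. Their part in the Tcf7 and Axin2 differences was not tested. Of 5 members tested, 2 passed in DN2 against DN1 where 48.5% of all genes did. In DN3 against DN2 it was 1 of 5 with 4.35% of all genes (1.2% higher and 3.14% lower), in DN4 against DN3 2 of 5 with 15% (7.47% higher and 7.53% lower), and in DP against DN4 1 of 5 with 49.5%.

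**Figure D1:**
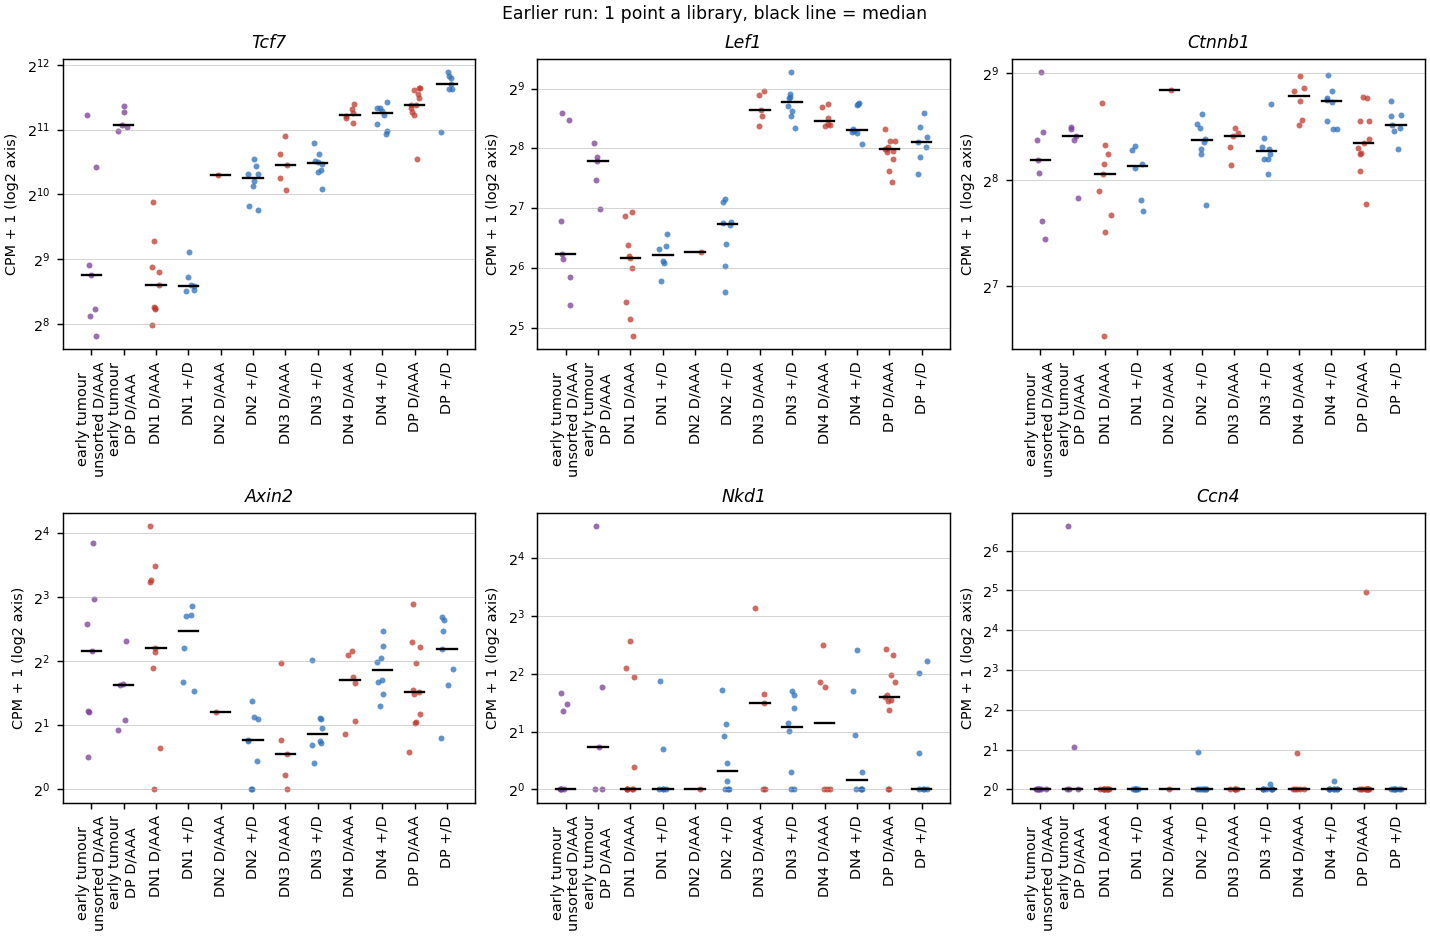
CPM + 1 on a log2 axis of each member in the earlier run, 1 point a library and a black line at the median, with early tumours at the left and each stage shown as D/AAA and then +/D. Tcf7 medians climb from DN1 to DP, Lef1 steps up at DN3, and Ccn4 lies at or near 0 except in 1 DP D/AAA library (30.0 CPM) and 1 sorted early tumour (97.4 CPM).

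In D/AAA cells Tcf7 and Lef1 also rose in DN3 against DN1, and Lef1 fell in DP against DN4. Tcf7 medians were 388 CPM in DN1 D/AAA, 1398 in DN3, 2407 in DN4 and 2675 in DP, and Lef1 medians 70.6, 399, 351 and 254 CPM. The single DN2 D/AAA library had 1262 CPM of Tcf7 and 75.9 CPM of Lef1. In DN3 against DN1 D/AAA 3 of 5 members passed, with 40.6% of genes called (19.7% higher and 20.9% lower). Tcf7 rose by 1.75 ± 0.23, Lef1 rose by 2.69 ± 0.23 and Axin2 fell by 2.89 (SE 0.89; edgeR adjusted p 1.62e-07, 2.99e-11 and 0.00852). In DP against DN4 D/AAA, with 29.4% called, Lef1 fell by 0.57 (log2, SE 0.20; adjusted p 0.0310), with all 11 DP libraries below all 6 DN4 libraries, as in 2.3% of all genes. This call was lost with relative log expression factors and with no count filter (log2 differences -0.52 and -0.54, adjusted p 0.0540 and 0.0704, range over the settings 0.00998 to 0.0704).

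In DN4 against DN3 D/AAA, with 3.16% of genes called (2% higher and 1.17% lower), edgeR called none of 5 members tested. Tcf7 had an unadjusted p under 0.05 (log2 difference 0.78 ± 0.25, adjusted p 0.0902) and, like Ctnnb1, all 6 DN4 libraries above all 5 DN3 libraries, as in 1.64% of all genes. limma voom called 1 member and DESeq2 called 0.

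Set stage by stage, D/AAA and +/D cells gave no call for any member by edgeR. Tcf7 averaged 448 ± 219 CPM in DN1 D/AAA (SD, n = 9) and 412 ± 71.7 CPM in DN1 +/D (n = 6), and in DP 2695 ± 491 CPM in D/AAA (n = 11) and 3227 ± 595 CPM in +/D (n = 7). All 11 DP D/AAA libraries lay below the +/D median, but 10 of 11 lay within the +/D range, and the difference was -0.22 ± 0.15 (log2, adjusted p 0.652). The Lef1 differences at the 4 stages ran from -0.17 to 0.14 and those of Ctnnb1 from -0.10 to 0.12. No member had an unadjusted p under 0.05, and DESeq2 and voom called 0 members at each stage. Hardly any gene was called either: 0% in DN1 and in DN3, 0.0081% in DN4 and 0.00803% in DP. The test of whether the genotype difference depends on stage called 0.134% of genes and no member (adjusted p of 1 for all 5 tested, none with an unadjusted p under 0.05, the same with relative log expression factors).

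Other genes of the pathway were read from lists by role. The Wnt cargo receptor Wls, which carries ligands out of the cell, averaged 169 ± 26.5 CPM in DN2 +/D (SD, n = 8) and 916 ± 112 CPM in DN1 +/D (n = 6), and fell by 2.45 (log2; edgeR adjusted p 5.51e-17). Among 4 ligand genes tested there 2 were higher and 1 lower, where 24.6% of all genes were higher and 23.9% lower. Wnt5b, a ligand of the non-canonical branch, rose to 28.8 ± 6.18 CPM in DN2, against 1.13 ± 2.15 CPM in DN1. Of 8 receptor genes 3 were higher and 1 lower, with the co-receptor Lrp5 at 14.4 ± 7.15 CPM in DN2 and 2.04 ± 2.46 CPM in DN1. Of 10 other Wnt target genes 3 were higher and 3 lower: Sox4 rose by 3.18, and Cd44 and Rnf43 fell by 4.95 and 4.53. Cd44 is also a marker of both DN1 and DN2 cells, and the part of cell make-up in its fall was not tested.

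At the DP stage 9 regulators of beta-catenin stability rose. Of 16 destruction complex and Dishevelled genes tested in DP against DN4 +/D, 9 were higher and 0 lower (median log2 difference 0.62, against 0.01 over all genes, of which 24.5% were higher and 25% lower). The kinase gene Gsk3b averaged 142 ± 22.3 CPM in DP (SD, n = 7) and 63.9 ± 7.67 CPM in DN4 (n = 8), and the scaffold gene Apc 83.2 ± 17 CPM in DP and 37.4 ± 8.73 CPM in DN4. Of 15 T-lineage genes that depend on TCF-1, 11 were higher and 2 lower, with the survival gene Bcl2l1 higher by 3.05 and the chromatin organiser Satb1 by 2.05. The Wnt inhibitor receptor Kremen1 rose by 1.81, to 496 ± 119 CPM in DP, against 151 ± 27.6 CPM in DN4. The target gene Myc fell by 4.26, to 21.9 ± 10.2 CPM in DP, against 449 ± 56.6 CPM in DN4. In D/AAA cells the same step gave 5 of 16 destruction complex genes higher and 0 lower, and 10 of 15 TCF-1 dependent genes higher and 1 lower, with 14.2% of all genes higher and 15.2% lower.

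In early tumours sorted as DP no member passed the test. Tcf7 was 2155, 2462, 2027, 2109 and 2647 CPM in the 5 early DP tumours, against 1490 to 3198 CPM in DP D/AAA cells (median 2675). All 5 lay below the median of the DP cells and within their range. Lef1 was 231, 177, 126, 273 and 220 CPM in the tumours, against 172 to 318 CPM (median 254), and 1 tumour lay below the range. The log2 differences were -0.26 ± 0.20 for Tcf7 and -0.29 ± 0.19 for Lef1 (edgeR adjusted p 0.441 and 0.377). edgeR called none of 5 members and 0% of all genes here, though 2719 of 12245 genes had an unadjusted p under 0.05. No member was among those, and DESeq2 called 791 genes and voom 2125, with 0 members each.

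The 2 members picked for full tumours stood out in single early tumours. Ccn4 was at 97.4 CPM (367 counts) in early DP tumour replicate 3, at 1.11 CPM in replicate 1 and at 0 in the other 3. Among the 11 non-tumoral DP D/AAA libraries it was 30.0 CPM (204 counts) in replicate 1 and 0 in the other 10. Nkd1 was at 22.7 CPM in early DP tumour replicate 4, a different library, and at most 2.43 CPM in the other 4, against 0 to 4.39 CPM in DP D/AAA cells. The chromosome 15 score was 0.98 in early DP tumour replicate 3 and 0.77 in DP D/AAA replicate 1. It was above the gain level in 4 of 5 early DP tumours, so most early tumours with that score had no Ccn4 counts.

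Unsorted early tumours had much less Tcf7 than DP cells. Their Cd4 lay below every DP library, and far fewer genes were called against DN1 D/AAA than against DP D/AAA cells. The name unsorted is thus in doubt, and these libraries need not represent whole tumours. Tcf7 was 430, 1366, 2394, 225, 480, 279 and 299 CPM in replicates 1 to 7, and replicates 2 and 3, those with few NK markers, were the high ones. Against DP D/AAA cells Tcf7 fell by 1.79 (log2, SE 0.41; edgeR adjusted p 0.00256), the only 1 of 4 members tested to pass where 29.1% of genes did. Against DN1 D/AAA cells, whose NK markers were 91.5 to 3297 CPM, the differences were 0.89 ± 0.48 for Tcf7 and 1.3 ± 0.48 for Lef1. edgeR called none of 4 members there and 0.00862% of genes, Lef1 had an unadjusted p under 0.05, and DESeq2 and voom called 0 members. The part of the other cell types in the Tcf7 difference was not tested. Without replicates 2 and 3, left out after the values were seen, Tcf7 fell by 3.05 (SE 0.24) against DP D/AAA cells and 2 members passed. These 2 libraries had the most Tcf7, so leaving them out had to enlarge the fall.

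In full tumours of the RERT2 line Ccn4 and Nkd1, almost without counts in thymus, were the members farthest from thymus, which is why they were picked. Ccn4 was at 0 in 3 of 22 RERT2 D/AAA tumours and reached 136 CPM, with a median of 27.2 CPM (4120 counts in all). In D/AAA thymus 1 count was found over 9 libraries, and in +/D thymus none over 6. The 3 tumours at 0 were replicates 12, 18 and 22, and 4 more lay between 0.196 and 1.47 CPM, so the range of the tumours still touched that of thymus. The ratio of mean levels was at least 58.7 against +/D thymus, taking a floor of 3 counts per thymus library. Against D/AAA thymus the count ratio was 1373, which rests on 1 thymus count, and single tumours ranged from 0 to 759 counts. These values chose the member, as did those of Nkd1 below, and 41.5% of all genes were called against +/D thymus and 34.9% against D/AAA thymus.

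Nkd1 ranged from 0 to 29.1 CPM in the 22 RERT2 D/AAA tumours (median 3.72, 4 at 0). It was at most 0.776 CPM in D/AAA thymus, with 7 of 9 libraries at 0, and at most 1.28 CPM in +/D thymus, with 5 of 6 at 0. Above all D/AAA thymuses lay 17 of 22 tumours, and the count ratio was 58.0, which rests on 4 thymus counts. Axin2, the other feedback inhibitor, had medians of 11.9 CPM in the tumours, 12.2 in D/AAA thymus and 10.9 in +/D thymus (log2 differences 0.03 and 0.01). Ctnnb1 was 29.1 to 69.4 CPM in the tumours (median 40.4), 19.1 to 47.5 in D/AAA thymus (27.7) and 29.0 to 36.2 in +/D thymus (34.0). Tcf7 was 408 to 1193 CPM (801) in the tumours, 784 to 1240 (924) in D/AAA thymus and 929 to 1431 (1090) in +/D thymus. Lef1 ranged from 38.8 to 828 CPM in the tumours (271), against 228 to 639 (280) in D/AAA thymus and 242 to 402 CPM (278) in +/D thymus.

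Per kilobase of exon, the median level in the RERT2 D/AAA tumours was 305 CPM for Tcf7, 30.8 for Lef1, 7.78 for Ctnnb1, 4.90 for Ccn4, 2.16 for Axin2 and 0.817 for Nkd1. In D/AAA thymus it was 352 for Tcf7, 31.8 for Lef1, 5.33 for Ctnnb1, 2.21 for Axin2 and 0 for Nkd1 and Ccn4. The order of the first 3 was thus the same in these 2 groups of the later run, and Ccn4 stood between Ctnnb1 and Axin2 in the tumours. In DP +/D cells of the earlier run Ctnnb1 (70.2) stood above Lef1 (31.2), so the order is not a fixed trait of the genes.

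**Figure D2:**
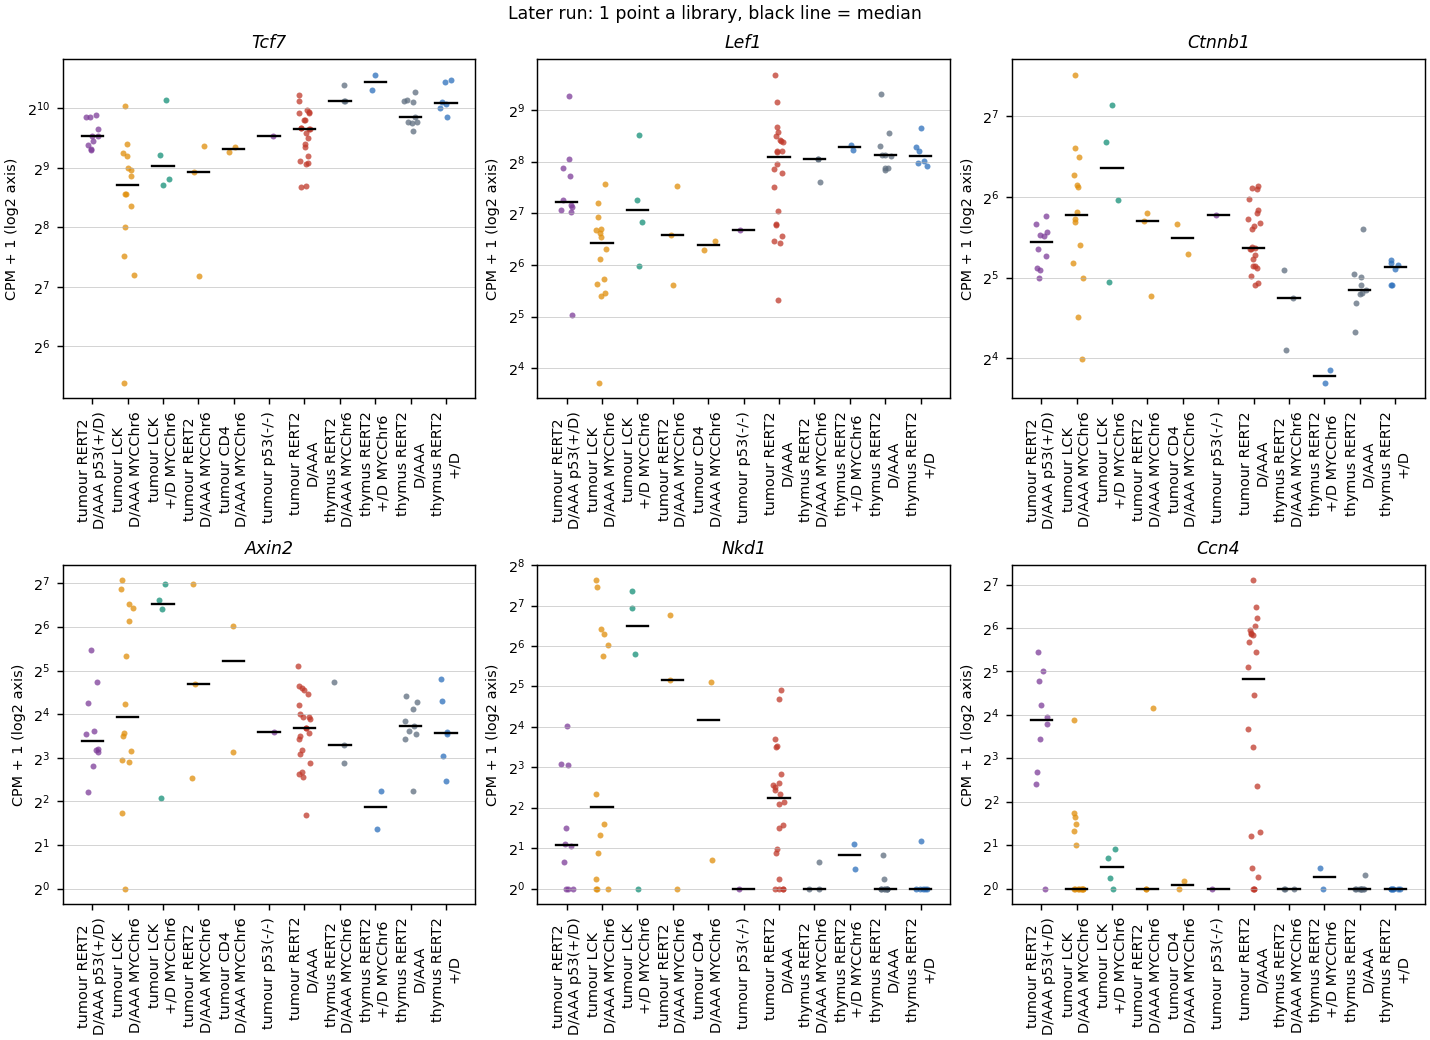
CPM + 1 on a log2 axis of each member in the later run, 1 point a library and a black line at the median, with tumours left of thymus. Ccn4 is high in RERT2 D/AAA tumours with and without p53(+/D) (medians 13.7 and 27.2 CPM) and near 0 in most MYCChr6 tumours, while Nkd1 in the 14 LCK D/AAA MYCChr6 tumours is 52.8 to 197 CPM in 6 and 0 to 4.09 CPM in 8. In other MYCChr6 groups 2 tumours lie between these ranges, at 35.0 and 33.6 CPM.

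The relation of each member with the score of its own chromosome was computed over the 22 RERT2 D/AAA tumours. For Ccn4 and chromosome 15 it is a description with no test, since values of these tumours chose the gene: Pearson's r of log2 Ccn4 with the score was 0.62 and Spearman's rho 0.55. Without the 2 tumours farthest from the median score r was 0.43, and with genes down to 1 CPM in the score r was 0.51 and rho 0.44. Lef1 and chromosome 3 had an r of 0.51 (permutation test, p adjusted over 6 members 0.0505), and r was 0.23 without the 2 farthest tumours. With the score centred on D/AAA thymus the adjusted p of this r was 0.0490, and with genes down to 1 CPM it was 0.453. The 6 members adjusted together include Ccn4, chosen on these tumours, whose p by r was the smallest. The adjusted p of Lef1 leans on that p, so no call is read from it. Tcf7 and chromosome 11 had an r of 0.42 (adjusted p 0.0985) and a rho of 0.59 that passed (adjusted p 0.0247). With genes down to 1 CPM in the score that rho was 0.32 and its adjusted p 0.298, so the call was lost. Nearly all of these tumours, 21 of 22, scored above the gain level for chromosome 15. The tumours with no Ccn4 counts, replicates 12, 18 and 22, scored 0.34, 0.61 and 0.24. Replicate 22 was the one below that level, and replicates 22 and 12 had the lowest scores of the group. The nearest expressed gene, Ndrg1, ranged from 0 to 144 CPM in the tumours and 10.6 to 29.1 CPM in +/D thymus, and its r with Ccn4 was 0.19 over the 22 tumours. Among the other neighbours, St3gal1 and Sla had an r of 0.44 each, Phf20l1 of 0.12 and Tmem71 of -0.14, all as descriptions with no test.

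**Figure D3:**
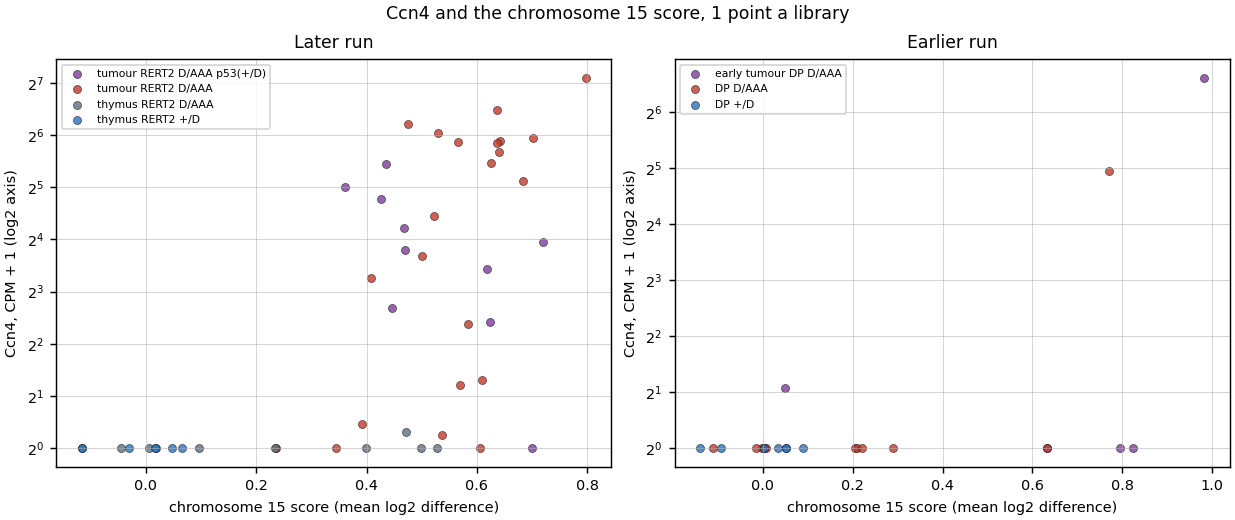
Ccn4 (CPM + 1, log2 axis) against the chromosome 15 score (mean log2 difference from +/D cells), 1 point a library, in the later run (left) and in DP cells and early DP tumours of the earlier run (right). The 4 D/AAA thymuses and 4 early DP tumours past the gain level of 0.292 include libraries with no Ccn4 counts, and the RERT2 D/AAA tumours past it range from 0 to 136 CPM. The lowest scores among RERT2 D/AAA tumours, 0.24 and 0.34, belong to replicates 22 and 12, which have no Ccn4 counts.

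Among Tcf7, Lef1, Ctnnb1 and Axin2 no pair passed a test of relation over the 22 RERT2 D/AAA tumours. The smallest p among their 6 pairs, adjusted over the 15 pairs of all members, was 0.228 (permutation test), for Tcf7 and Axin2 (r 0.46, rho 0.40). Pairs with Ccn4 or Nkd1 are given with no test: r was -0.56 and rho -0.52 for Lef1 and Ccn4 (r -0.48 without the 2 farthest tumours), and -0.06 and -0.07 for Axin2 and Nkd1. The 5 summed fibroblast markers were 7.59 to 170 CPM in these tumours (median 46.0), 0 to 28.1 CPM in D/AAA thymus and 0.232 to 10.5 CPM in +/D thymus, with Pdgfra at a median of 0 and Pdgfrb at a median of 31.3 CPM in the tumours. Their part in the Ccn4 level was not tested.

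Tumours that carried p53(+/D) as well also had Ccn4 and Nkd1 counts. Ccn4 ranged from 0 to 42.5 CPM in the 10 RERT2 D/AAA p53(+/D) tumours (median 13.7), against 0 to 0.247 CPM in D/AAA thymus, and 9 of 10 tumours lay above all 9 thymuses. Nkd1 ranged from 0 to 15.3 CPM (median 1.12), with 6 of 10 tumours above all thymuses. These 2 comparisons share thymus libraries that chose the members and are not tested. Tcf7 fell by 0.40 (log2, SE 0.12; edgeR adjusted p 0.0139), to 772 ± 122 CPM in p53(+/D) tumours (SD, n = 10), against 989 ± 158 CPM in D/AAA thymus (n = 9). Ctnnb1 rose by 0.45 ± 0.17 (adjusted p 0.0388), to 41.4 ± 7.53 CPM, against 29.5 ± 7.74 CPM. The groups overlapped for both genes, and 2 of 4 members tested passed where 36.3% of genes did. With no count filter neither passed (adjusted p 0.129 for Tcf7 and 0.0579 for Ctnnb1, range over the settings for Tcf7 0.00404 to 0.129).

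Without the 4 D/AAA thymuses that scored above the gain level for chromosome 15, the Ctnnb1 difference was 0.30 ± 0.19 and no longer passed (edgeR adjusted p 0.220, range over the settings 0.0196 to 0.220). Between p53(+/D) tumours and RERT2 D/AAA tumours without it edgeR called none of 4 members tested (1.29% of genes). None had an unadjusted p under 0.05, and DESeq2 and voom called 0 of them. The Tcf7 difference was -0.02 ± 0.14 and that of Lef1 -0.41 ± 0.38 (log2). Lef1 ranged from 31.5 to 618 CPM in the p53(+/D) tumours (median 147.7) and from 38.8 to 828 CPM in those without it (271).

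Other pathway genes in p53(+/D) tumours against D/AAA thymus were mostly lower where they passed. Of 15 TCF-1 dependent T-lineage genes 0 were higher and 9 lower, with the signalling gene Themis at 127 ± 22.9 CPM in the tumours (SD, n = 10) and 314 ± 135 CPM in thymus (n = 9), and Bcl2l1 at 49.4 ± 21.1 and 137 ± 65.0 CPM. Of 14 nuclear partners of beta-catenin 3 were higher and 6 lower. The coactivator genes Bcl9 and Bcl9l fell by 1.24 and 1.46, and the TCF family gene Tcf7l2 fell by 3.96, to 0.433 CPM in the tumours, against 7.32 CPM in thymus. Of 6 other target genes 1 was higher and 1 lower: Ccnd1 rose to 56.1 ± 21.3 CPM, against 14.3 ± 25.1 CPM, and Tcf4 fell by 1.56. Over all genes 17.6% were higher and 18.8% lower. The summed stage markers, Cd4, Cd8a and Rag1 among them, were 589 to 1499 CPM in the tumours and 608 to 3589 CPM in thymus, and their part in these differences was not tested.

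Part of the MYCChr6 tumours had high Nkd1, others had little or none, and Ccn4 was low in most. The Nkd1 median of the LCK D/AAA MYCChr6 tumours was 3.05 CPM, against 3.72 CPM in RERT2 D/AAA tumours. In 14 LCK D/AAA MYCChr6 tumours Nkd1 fell into separate sets: 84.3, 64.7, 52.8, 174, 197 and 77.04 CPM in replicates 1, 2, 4, 5, 12 and 13, and at most 4.09 CPM in the other 8, of which 3 were at 0. Axin2 split the same libraries. It was 85.3, 117, 39.3, 134, 90.6 and 69.2 CPM in those 6, and 0 to 17.7 CPM in the other 8. No library lay between 4.09 and 52.8 CPM of Nkd1 or between 17.7 and 39.3 CPM of Axin2.

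The other MYCChr6 tumours also differed among themselves in both genes. Of the 4 LCK +/D MYCChr6 tumours, replicates 1 to 3 had Nkd1 at 164, 122 and 55.0 CPM and Axin2 at 83.8, 125 and 97.5 CPM, and replicate 4 had 0 and 3.19 CPM. Of the 3 RERT2 D/AAA MYCChr6 tumours, replicate 2 had 108 CPM of Nkd1 and 126 CPM of Axin2, replicate 3 had 35.0 and 24.9 CPM, and replicate 1 had 0 and 4.78 CPM. Of the 2 CD4 D/AAA MYCChr6 tumours, replicate 2 had 33.6 and 64.2 CPM and replicate 1 had 0.631 and 7.82 CPM. Replicate 3 of the RERT2 and replicate 2 of the CD4 tumours lay between the 2 ranges of Nkd1 in LCK D/AAA tumours. Nkd1 above 50 CPM occurred with both Cdc20 genotypes. In MYCChr6 thymus Nkd1 was at most 1.16 CPM and Axin2 1.59 to 25.9 CPM.

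Stage and B cell markers were high where Nkd1 was high in these 3 smaller groups of MYCChr6 tumours. The summed stage markers were 990, 1571 and 451 CPM in LCK +/D replicates 1 to 3 and 34.2 CPM in replicate 4. In RERT2 tumours they were 851 and 437 CPM in replicates 2 and 3 and 133 CPM in replicate 1, and in CD4 tumours 748 CPM in replicate 2 and 48.5 CPM in replicate 1. B cell markers were 422, 497 and 430 CPM in LCK +/D replicates 1 to 3 and 5.67 CPM in replicate 4, 219 and 199 CPM in RERT2 replicates 2 and 3 and 2.66 CPM in replicate 1, and 33.8 and 0 CPM in CD4 replicates 2 and 1. In each of these groups the tumour with the least Nkd1 had the least of both lists. In LCK D/AAA tumours the lists overlapped: stage markers were 283 to 2257 CPM in the 6 tumours with high Nkd1 and 122 to 1239 CPM in the other 8, and B cell markers 7.85 to 386 and 2.29 to 739 CPM. NK and innate lymphoid markers there were 18.1 to 36.9 CPM in 5 of the 6 and 112 CPM in the last, replicate 4, and 26.5 to 343 CPM in the other 8. The part of these markers in the Nkd1 and Axin2 levels was not tested.

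Apcdd1, which encodes a membrane-bound Wnt inhibitor, and Rnf43, a ligase that removes Frizzled receptors, were looked at by library after their values were seen. Apcdd1 was 79.7, 75.6, 46.2, 111, 103 and 78.1 CPM in the 6 LCK D/AAA tumours with high Nkd1, and at most 0.216 CPM in the other 8. It was 104, 126 and 61.2 CPM in the 3 LCK +/D tumours with high Nkd1, and 0 in the other. Rnf43 went the other way, at 0.191 to 8.57 CPM in the 6 D/AAA tumours and 4.70 to 68.5 CPM in the other 8. The sets were defined by Nkd1, so these are descriptions with no test. Apcdd1 was at most 7.28 CPM in D/AAA thymus and 21.1 CPM in RERT2 D/AAA tumours.

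**Figure D4:**
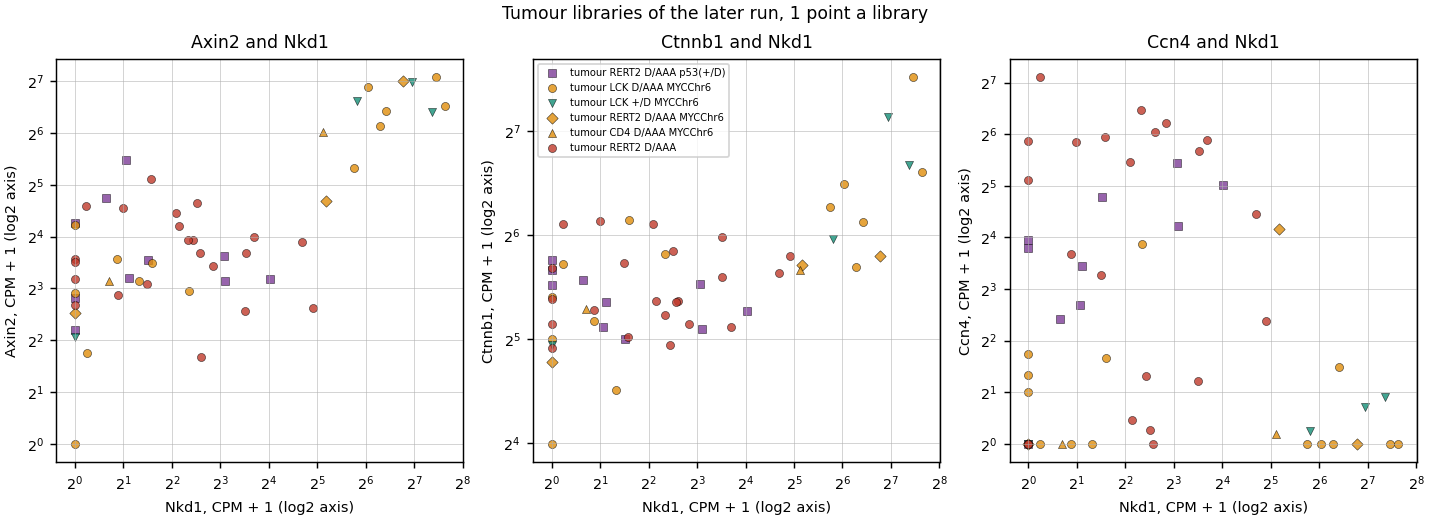
Axin2, Ctnnb1 and Ccn4 against Nkd1 (CPM + 1, log2 axes) in the tumours of the later run, 1 point a library, coloured by group. LCK D/AAA MYCChr6 tumours form a set with Nkd1 of 52.8 to 197 CPM and Axin2 of 39.3 to 134 CPM, apart from the others of their group at 0 to 4.09 CPM of Nkd1, while high Ccn4 lies among RERT2 D/AAA tumours with Nkd1 of up to 29.1 CPM.

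Within the LCK D/AAA tumours the DNA-binding factors and Ctnnb1 varied without such a gap. Ctnnb1 was 68.8, 88.8, 76.1, 182, 96.0 and 50.6 CPM in the 6 tumours with high Nkd1 and 14.9 to 69.8 CPM in the other 8, so the sets overlapped. Within each set no relation of Tcf7, Ctnnb1 or Axin2 with Nkd1 passed (exact permutation tests, 6 relations over 6 or 8 tumours, adjusted p of 0.518 or more for r). The sets were cut on Nkd1 itself and are small, and Nkd1 is near 0 in the lower one. These tests therefore cannot decide whether the genes are related, and nothing is concluded from them. Tcf7 was 497, 509, 462, 1049, 375 and 672 CPM in the 6 and 40.6 to 606 CPM in the other 8. Over all 14 tumours Tcf7 and Lef1 had an r of 0.81 and a rho of 0.65 (permutation tests, unadjusted p 0.00172 and 0.0135). Adjusted over 15 pairs these were 0.00645 and 0.0412. The 15 include pairs with Nkd1 or Axin2, some with small p, so no call is read from the adjusted values. Without the 2 tumours farthest from the median r was 0.43, so the relation of Tcf7 and Lef1 rests on those. Pooled values with Nkd1 or Axin2 are not given because the tumours fall into separate sets. The lowest Tcf7 and Lef1 (40.6 and 12.1 CPM) and no Axin2 were in replicate 9, which had the highest B cell marker sum (739 CPM).

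Against RERT2 D/AAA tumours, the LCK D/AAA MYCChr6 tumours had less Tcf7 and Lef1. Tcf7 averaged 435 ± 256 CPM in LCK tumours (SD, n = 14) and 778 ± 216 CPM in RERT2 tumours (n = 22), and Lef1 85.3 ± 46.8 and 272 ± 182 CPM. Below the RERT2 median lay 13 of 14 LCK tumours for Tcf7 and 14 of 14 for Lef1, while the ranges overlapped. Tcf7 fell by 0.83 (log2, SE 0.23) and Lef1 by 1.66 (SE 0.33), with edgeR adjusted p of 0.00545 and 0.000176. Axin2 rose by 1.69 ± 0.46 (adjusted p 0.00396), with 6 tumours above the whole RERT2 range and 7 of 14 below its median. limma voom gave 1.04 for Axin2 and did not call it (adjusted p 0.105, range over the settings 0.000652 to 0.105). Ctnnb1 differed by 0.48 ± 0.21 (adjusted p 0.0734). Thus 3 of 4 members tested passed where 35.3% of genes did. Replicate 9, the tumour with the most B cell markers, was left out after its values were seen. Without it the same 3 passed, at -0.72, -1.56 and 1.80 for Tcf7, Lef1 and Axin2.

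Driver, MYCChr6 and the cell make-up all differ between these groups and cannot be told apart. The summed B cell markers were 2.29 to 739 CPM in LCK tumours (median 43.9) and 0 to 27.1 CPM in RERT2 tumours (3.71), the NK and innate lymphoid ones 18.1 to 343 (74.6) and 0 to 16.3 CPM (0.798), and the myeloid ones 97.8 to 716 (252) and 19.4 to 188 CPM (61.7). Ccn4 was 0 to 13.7 CPM in LCK tumours, 8 of 14 at 0, and 0 to 136 CPM in RERT2 tumours. The chromosome 15 score was above the gain level in 9 of 14 LCK tumours.

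The wider pathway moved unevenly in this comparison. Of 4 receptor genes 0 were higher and 3 lower: the co-receptor Ptk7 averaged 2.99 ± 5.34 CPM in LCK tumours (SD, n = 14) and 33.5 ± 16.02 CPM in RERT2 tumours (n = 22), and Lrp5 and Fzd5 fell by 1.89 and 1.77. Of 15 destruction complex genes 0 were higher and 5 lower, with Fbxw11 and Gsk3b lower by 0.68 and 0.49. Of 9 other target genes 5 were higher and 2 lower. Rnf43 rose by 4.12 and Prdm1 by 4.50, and Sox4 fell by 0.88. Of 14 nuclear partners 2 were higher and 7 lower, with the corepressor Tle4 at 7.14 ± 5.33 CPM and 0.818 ± 1.11 CPM and the TCF family member Tcf7l1 higher by 1.44. Of 15 TCF-1 dependent genes 1 was higher and 9 lower, among them Bcl11b, a factor of T-lineage commitment, which fell by 1.37. Over all genes tested 18.6% were higher and 16.7% lower.

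Against MYCChr6 thymus the groups were small. Nkd1 and Ccn4, picked for their rise in full tumours, had 2 and 0 counts in D/AAA MYCChr6 thymus, and 6 and 1 in +/D MYCChr6 thymus. They entered these fits through the tumours, so their tests against thymus are not used as support. Counts over 6 members include both. Lef1 averaged 85.3 ± 46.8 CPM in LCK D/AAA tumours (n = 14) and 241 ± 41.8 CPM in D/AAA MYCChr6 thymus (n = 3), every tumour below every thymus, as for Tcf7 and for 3.45% of all genes. It fell by 1.47 (log2, SE 0.46; edgeR adjusted p 0.0464), the only 1 of 6 members to pass where 8.82% of genes did. Leaving out any 1 of the 3 thymuses ended the call (log2 difference -1.59 to -1.43, adjusted p 0.0889 to 0.158, range over the settings 1.13e-05 to 0.158). Tcf7 differed by -1.42 ± 0.48 (adjusted p 0.0687). Without tumour replicate 9, left out after its values were seen, the Lef1 difference was -1.44 ± 0.40 and 2 members passed. Nkd1 totalled 3171 counts in the tumours and 2 in thymus, a ratio of 272 (95% interval 75.2 to 2246, counting error only), and did not pass (adjusted p 0.153).

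In LCK +/D MYCChr6 tumours Ctnnb1 was 101, 140, 61.2 and 29.8 CPM, against 13.5 and 11.96 CPM in +/D MYCChr6 thymus, all 4 above both, as in 14.9% of all genes. It rose by 2.72 ± 0.78 (edgeR adjusted p 0.0443), 1 of 6 members where 4.13% of genes passed. Leaving out any 1 of tumour replicates 1 to 3 or either thymus ended the call (log2 difference 2.37 to 2.80), as did limma voom, a fit of the groups compared alone and relative log expression factors, the last of which shifted the median of all genes by -0.12 (adjusted p 0.000273 to 0.338 over the settings). In RERT2 D/AAA MYCChr6 tumours against D/AAA MYCChr6 thymus edgeR called none of 6 members (1.86% of genes). The unadjusted p of Nkd1 and Ccn4 is not read here, because both were picked for their rise in tumours and had almost no thymus counts. The Nkd1 count ratio was 306 (95% interval 84.4 to 2531), and the Ccn4 mean, set by 1 tumour at 16.9 CPM, was at least 7.60-fold higher than a floor of 3 counts per thymus library. DESeq2 called 1 member and voom called 0.

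LCK D/AAA and LCK +/D MYCChr6 tumours gave no call among 6 members by edgeR (0.00627% of genes called), with 1 unadjusted p under 0.05, that of Lef1 (log2 difference -1.02 ± 0.43, 85.3 ± 46.8 CPM in D/AAA and 174 ± 134 CPM in +/D). DESeq2 and voom called 0. LCK D/AAA MYCChr6 and RERT2 D/AAA MYCChr6 tumours gave no call either (0.0125% of genes), with no unadjusted p under 0.05 and 0 members by DESeq2 and voom. Non-tumoral D/AAA and +/D thymus likewise gave 0 of 4 members tested and 0% of genes by edgeR, with no member at an unadjusted p under 0.05, though DESeq2 called 34 genes and voom 1. Tcf7 averaged 989 ± 158 CPM in D/AAA thymus (n = 9) and 1161 ± 205 CPM in +/D thymus (n = 6), a difference of -0.22 ± 0.14 on the log2 scale.

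The protein-coding genes whose log2 level followed each member most closely were ranked by Pearson's r averaged over 80 earlier and 76 later libraries, as a description over libraries that share stage and tissue. For Tcf7 they were Cux1 (mean r 0.86), Themis (0.83) and Myb (0.81), and for Lef1 P2rx1 (0.75), Brd3 (0.73) and Prps2 (0.73). For Ctnnb1 the closest was Rpa1 (0.62), for Axin2 Extl3 (0.58), for Ccn4 Ripk4 (0.59) and for Nkd1 Phlda1 (0.46). The likeness of Nkd1 and Phlda1 came mostly from the later run (r 0.60) and less from the earlier one (0.32). Slc29a1, a nucleoside transporter gene, was among the 3 closest of both Ctnnb1 and Nkd1.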

How the data were processed

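RNA from sorted thymocytes, thymus and tumours was sequenced on a HiSeq2000, per the labels' protocols. The authors deposited RSEM estimated counts per gene, whole numbers, in 1 table a run. The submitters' processing notes name FastQC, STAR 2.5.3a and RSEM 1.3.0. Of 50686 genes 50462 were given a GENCODE M21 symbol; no source used here gives the annotation release or the strand setting. Samples were grouped by genotype, tissue and source labels.

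The deposited expected counts were tested within a run with edgeR 4.0.16 (R 4.3.3; filterByExpr, TMM, robust quasi-likelihood fit) and Benjamini-Hochberg adjustment over all genes tested, threshold 0.05. A standard error is the log2 difference divided by the root of F. CPM was scaled over all libraries of a run. Chromosome scores averaged genes whose mean reached 10 CPM (prior count 2). Relations used 100000 permutations. Ratio intervals (95%) and the floor of 3 counts cover counting error only. The scripts were tested on simulated data, where recovery of 4-fold changes ran from 0 to 88% by comparison and of 2-fold changes from 0 to 59%. It was lowest against MYCChr6 thymus. There 0% of 4-fold changes were found for LCK +/D, 29% for LCK D/AAA and 30% for RERT2 D/AAA tumours. For early DP tumours against DP D/AAA it was 58% of 4-fold and 20% of 2-fold changes. A lack of calls in such comparisons therefore says little.

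Members and gene lists were chosen with earlier results of these data known. The 6 members were always named, plus up to 3 genes a list and comparison with the smallest adjusted p under 0.05 and a mean of at least 5 CPM in 1 group. Apcdd1 and Rnf43 by library, Pdgfrb and the neighbours of Ccn4 were chosen after their values were seen. Alternatives were DESeq2 1.42.0, limma 3.58.1 voom with quality weights, a fit with no low-count filter, relative log expression factors, fits of the groups compared alone, and libraries or genes left out.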

Additional observations from a re-analysis of the deposited data

Results flagged for a closer look

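Single libraries stood far from the rest of their group in 21 of 78 sets of values, a set being 1 member in 1 group of 4 to 10 libraries, where chance gives about 1 in 20. In 6 of them (Nkd1 in +/D thymus, and Ccn4 in DN2, DN3 and DN4 +/D, DN4 D/AAA and D/AAA thymus) all other libraries were at 0, so that any count stands apart and that rate does not apply. Nothing is read from the number of such sets. Tcf7 was low in DP +/D replicate 2 (1988 CPM) and high in DN1 +/D replicate 6 (552 CPM). Lef1 was high in D/AAA thymus replicate 7 (639 CPM) and p53(+/D) tumour replicate 5 (618 CPM). Ctnnb1 was high in DN3 +/D replicate 2 (420 CPM) and D/AAA thymus replicate 1 (47.5 CPM), and low in early DP tumour replicate 1 (226 CPM). Axin2 was high in DN3 +/D replicate 1 (3.07 CPM) and DN3 D/AAA replicate 3 (2.92 CPM).

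Nkd1 stood above its group in p53(+/D) tumour replicate 8 (15.25 CPM), early DP tumour replicate 4 (22.7 CPM), DN3 D/AAA replicate 2 (7.87 CPM), DN1 +/D replicate 6 (2.67 CPM), D/AAA thymus replicate 9 (0.776 CPM) and +/D thymus replicate 1 (1.28 CPM). Ccn4 did so in early DP tumour replicate 3 (97.4 CPM). In the other Ccn4 cases the rest of the group was at 0: DN4 D/AAA replicate 2 (0.893 CPM), D/AAA thymus replicate 7 (0.247 CPM) and replicate 8 of DN2, DN3 and DN4 +/D (0.924, 0.102 and 0.149 CPM).

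In tumours that enter no comparison, CD4 D/AAA MYCChr6 replicate 2 had Ctnnb1 at 49.6 CPM, Axin2 at 64.2 CPM and Nkd1 at 33.6 CPM, and the p53(-/-) tumour had Ctnnb1 at 54.0 CPM. The highest values in thymus without MYCChr6 were 47.5 CPM for Ctnnb1, 26.9 CPM for Axin2 and 1.28 CPM for Nkd1.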

How the results depend on the processing

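No comparison reversed a direction. Over all settings 161 of 192 recomputed counts of called members or relations stayed within 1.5 times the main count and 31 moved, and of 138 recomputed values of named members 121 kept their side of the threshold and 17 lost it. voom called 4 members in DN4 against DN3 +/D (2 in edgeR), 1 in DN4 against DN3 D/AAA (0), 2 in DP against DN4 D/AAA (1), 3 in unsorted early tumours against DP D/AAA (1) and 2 in LCK D/AAA MYCChr6 tumours against D/AAA MYCChr6 thymus (1). DESeq2 called 3 there, 1 in RERT2 D/AAA MYCChr6 tumours against that thymus (0) and 2 in LCK +/D MYCChr6 tumours against +/D MYCChr6 thymus (1). With no low-count filter the counts were 0 in DP against DN4 D/AAA, 0 in p53(+/D) tumours against D/AAA thymus (2), and 4, 6 and 4 in the RERT2 D/AAA, LCK D/AAA and LCK +/D MYCChr6 tumours against their thymus, and 1 in LCK D/AAA against LCK +/D tumours (0). Counts against MYCChr6 thymus are over 6 members, with Nkd1 and Ccn4 among them. Relative log expression factors gave 0 in DP against DN4 D/AAA and in LCK +/D tumours against thymus. A fit of the groups compared alone gave 0 in LCK +/D tumours against thymus and 1 in DN4 against DN3 D/AAA. Leaving out 1 library gave 0 to 0 over the thymuses of the LCK D/AAA comparison and 0 to 1 over the libraries of the LCK +/D comparison. The own-chromosome relation of Ccn4 is only described. By r, no relation of another member passed in the main setting or with genes down to 1 CPM. Centring on D/AAA thymus gave Lef1 an adjusted p of 0.0490 (permutation test). That adjustment includes Ccn4, so no call is read from it. Chosen after seeing the data, leaving out D/AAA libraries above the chromosome 15 gain level gave 1 in p53(+/D) tumours against thymus. Chosen in the same way, leaving out the unsorted early tumours with the fewest NK markers gave 2. Leaving out the LCK tumour with the most B cell markers, also chosen so, gave 2 against MYCChr6 thymus. The cause was not tested. No paired analysis was possible because the labels give no replicate numbers. Precision is limited by the MYCChr6 thymus groups of 2 and 3 and by members near 0 counts.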

Other observations

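In the p53(-/-) tumour, the only library of its kind, Tcf7 was 745 CPM, Lef1 102 CPM and Axin2 11.1 CPM, and no Nkd1 or Ccn4 count was found. The CD4 D/AAA MYCChr6 tumours had Tcf7 at 613 and 655 CPM and Lef1 at 76.8 and 87.6 CPM. Apcdd1 was 0 in CD4 replicate 1 and 44.8 CPM in replicate 2, the tumour with high Nkd1, and in RERT2 D/AAA MYCChr6 tumours it was 0, 96.0 and 11.7 CPM.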
